A study of Homo sapiens with 5 samples.

Results

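The genes described here are mRNAs that have been reported as substrates of RIDD, the regulated IRE1-dependent decay of mRNA, chosen by name from a list of 10: BLOC1S1, CD59, PMP22, PER1, HGSNAT, SPARC, TGOLN2, TNFRSF10B, SCARA3 and GPC3. The measured table held 9 of the 10 among 10504 genes, and BLOC1S1 had no value under that symbol. Ribo-seq, which sequences the mRNA fragments covered by ribosomes (footprints), and RNA-seq had been applied to HEK293A, an adherent line derived from human embryonic kidney cells. The cells carried an siRNA against IRE1α (siIRE1a, 2 titled samples) or a control siRNA (siCon, 2 titled samples), and 1 further Ribo-seq sample multiplexed both groups. All cells had been starved and then given FBS, and the labels name neither an inducer of endoplasmic reticulum (ER) stress nor a group without FBS.

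IRE1α, encoded by ERN1, is a kinase and endoribonuclease of the ER membrane. When unfolded proteins accumulate it cuts XBP1 mRNA at a pair of stem-loops, and the ligated product encodes the transcription factor XBP1s. In RIDD the same nuclease cuts other mRNAs, most of them encoding secreted or membrane proteins and brought to the ER by translation, and the fragments are removed by the XRN1 exonuclease and the RNA exosome. The reports of such substrates come from several species and cell types, often under strong ER stress, so a member of this list need not be cut in starved and refed HEK293A cells.

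The cut sites known in XBP1 lie in a loop of 7 bases with the letters CNGCAGN, held by a paired stem. This pattern was searched in 1 coding transcript per gene (GENCODE release 29, GRCh38), on the sense strand only, counting unbroken G-C, A-U and G-U pairs outward from the loop. The sequences below are shown because they place the XBP1 loops beside matches in substrate mRNAs that have paired stems. Each is written 5′ to 3′ as DNA with the loop in capitals and 10 bases on either side.
XBP1 first loop, chr22:28796139-28796165, minus strand: tctgctgagtCCGCAGCactcagacta
XBP1 second loop, chr22:28796113-28796139, minus strand: acgtgcacctCTGCAGCaggtgcaggc
BLOC1S1, chr12:55719579-55719605, plus strand: caaagggcagCTGCAGTctgccccttc
CD59, chr11:33710135-33710161, minus strand: ccatttctggCAGCAGCctggagcctt
TGOLN2 first match, chr2:85327538-85327564, minus strand: gcatccggagCCGCAGActccaaaaga
TGOLN2 second match, chr2:85327328-85327354, minus strand: gcatccggagCTGCAGActccaaaaga

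All 6 stretches shown lay in coding sequence and within 1 exon. Further matches with 4 pairs in CD59, PER1 and PMP22 also lay in coding sequence but are not shown. Those of CD59 and PMP22 spanned 2 exons. The XBP1 stems had 6 and 7 pairs with no G-U pair. The BLOC1S1 stem had 6 pairs and no G-U pair, and the CD59 stem had 6 pairs of which 3 were G-U. Both TGOLN2 stems had 4 pairs, and the 27 bases shown are the same apart from the second base of the loop. At least 5 pairs were found for 1 of the 9 measured substrates, CD59, against 6.02% of all measured genes with a transcript. In coding sequence alone the share of measured genes was 3.39%. With at least 4 pairs the count was 4 of 9 (CD59, PER1, PMP22 and TGOLN2) against 14.2% of measured genes. The CD59, TGOLN2 and PER1 transcripts are longer than the median of 3383.5 bases, and that of PMP22 is shorter. No share among genes of like length was taken at 4 pairs. The 6 letters CTGCAG alone do not separate the list, since 8 of 9 substrates held them, all but TNFRSF10B, and so did 85.6% of measured genes. Long transcripts hold more matches by length alone: among genes within 20% of the 7631 bases of the CD59 transcript, 9.83% had a loop with at least 5 pairs. A match is a description of letters and does not show that IRE1α cuts there.

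The titled samples had 49112701 and 34172898 clusters for siIRE1a and 28769136 and 31876615 for siCon in the deposited run summary. Which assay these clusters belong to is not clear from the descriptions, and no value is given here for the multiplexed sample. The tables held 1 footprint and 1 RNA value per gene and group in a unit that is not stated, so these values have no replicate error and no test. Levels are compared within a gene, apart from the low level of ERN1 and a minimum mean value used as an alternative setting. TE, the translational efficiency, is the footprint value divided by the RNA value, and its change comes with an adjusted p in the authors' deposited table. ERN1 RNA was 0.0736 in siIRE1a cells and 0.121 in siCon cells, which was 1.65-fold lower, and its footprints were 0.275 in siIRE1a cells and 0.402 in siCon cells. These ERN1 values are low: the log2 RNA change of −0.72 was −0.35 with a pseudocount of 0.1 and −0.063 with a pseudocount of 1. XBP1 RNA was nearly level, at 1.15 in siIRE1a cells and 1.19 in siCon cells. Of 10 markers of the HEK293 lineage 7 were measured (NEFL, VIM, KRT8, KRT18, CDH2, SALL1 and LIN28B), while NEFM, INA and PAX2 had no value. VIM (log2 −0.36, adjusted p = 0.0415), KRT8 (−0.47, adjusted p = 0.0131) and KRT18 (−0.65, adjusted p = 0.00389) fell in TE in the authors' deposited table, 3 of 6 tested markers, where 4.62% of 8878 tested genes fell. These 3 transcripts have GC contents of 53.9%, 59.1% and 60.5%. With a trend on GC content removed, their TE changes were −0.14, −0.17 and −0.35. The marker footprint changes ran from −0.39 (LIN28B) to 0.37 (CDH2), and the part of these marker changes in the results was not tested. Of 12 markers of other cell types only COL3A1 was measured. In bulk samples, fewer cells that express a gene and less RNA per cell cannot be told apart.

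The main comparison asked whether mRNAs reported as cut by IRE1α were more abundant, or more occupied by ribosomes, in cells given the siRNA against IRE1α. Footprints were slightly higher in siIRE1a cells for 8 of the 9 substrates, with a median log2 change of 0.15, while RNA was split, with 5 substrates above 0 and 4 below and a median of 0.15. Over all 10504 genes, 32.1% had a footprint change above 0 and 48.8% an RNA change above 0, and the all-gene medians were −0.082 and −0.011. The sizes were small: 1 substrate, GPC3, was at least 1.2-fold higher in footprints (6.32% of all genes were). In RNA, 2 substrates, PER1 and GPC3, were at least 1.2-fold higher (20.7% of all genes), and 2, CD59 and PMP22, at least 1.2-fold lower (26.0%). Of the 9 substrates 1, CD59, rose in TE in the authors' deposited table at an adjusted p under 0.05, where 5.90% of 8878 tested genes rose. None of the 9 fell, where 4.62% of tested genes did, and the other 8 substrates had adjusted p-values between 0.209 and 0.997 in the authors' deposited table. The median RNA change was −0.025 over the 5 substrates with a mean RNA value of at least 1, and −0.0011 once a trend on GC content was removed, so the direction of the RNA median rests on the settings. So do the RNA calls by fold: with the GC trend removed 0 substrates were at least 1.2-fold higher, PER1 (log2 0.25) and GPC3 (0.23) included, and CD59 was the 1 left at least 1.2-fold lower (PMP22 −0.23).

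**Figure D1:**
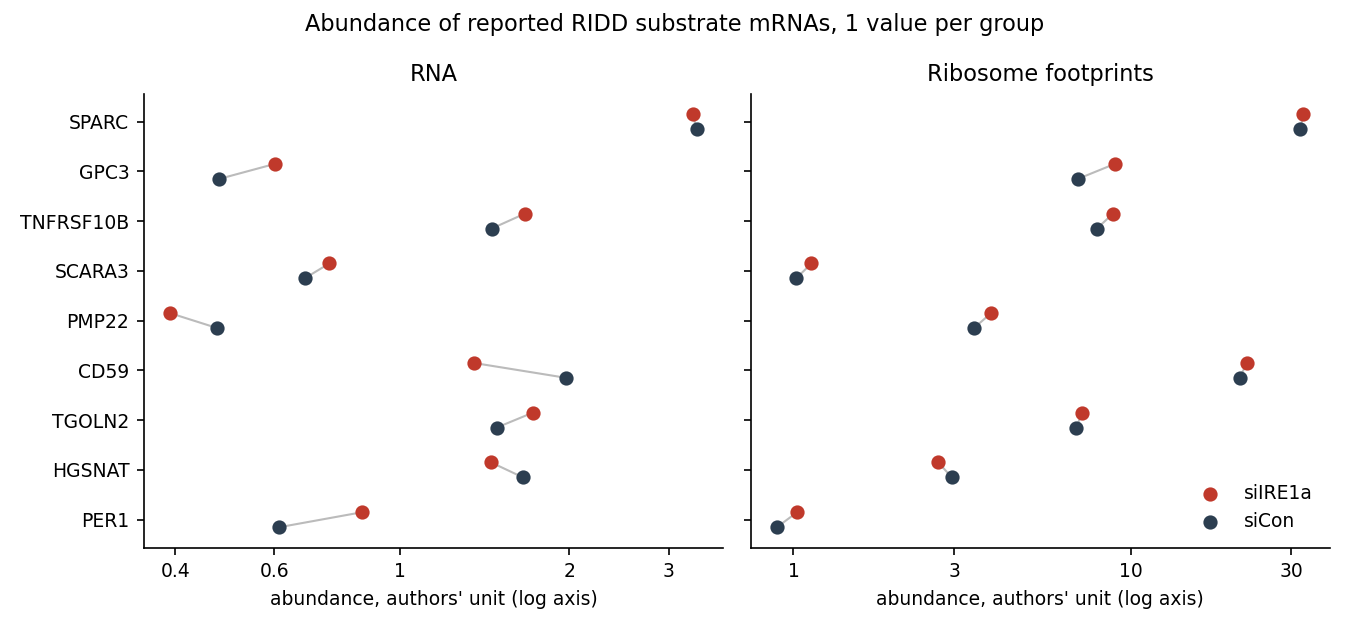
Abundance of the 9 measured RIDD substrate mRNAs in RNA (left) and ribosome footprints (right), in the authors' unit on a log axis, with 1 point per group joined by a line. The siIRE1a point lies right of the siCon point for 8 of 9 genes in footprints and for 5 of 9 in RNA, and CD59 has the widest gap to the left in RNA (1.35 in siIRE1a against 1.98 in siCon).

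CD59 was the 1 substrate with a TE call. It encodes a lipid-anchored surface protein that blocks the membrane attack complex of complement. Its RNA was 1.35 in siIRE1a cells and 1.98 in siCon cells, which was 1.46-fold lower (log2 −0.55). Its footprints were 22.1 in siIRE1a cells and 21.1 in siCon cells (log2 0.071). Footprints were thus nearly level while RNA was lower in siIRE1a cells. TE was 16.3 in siIRE1a cells and 10.7 in siCon cells, and in the authors' deposited table the TE of CD59 rose by 0.63 on the log2 scale (1.54-fold, adjusted p = 0.000962). The 2 measured surface regulators of complement beside it, CD46 and CD55, had RNA changes of 0.25 and 0.013 and no TE call. The same pattern, with lower RNA, footprints nearly level or higher, and a call for higher TE in the authors' deposited table, was larger in several other membrane proteins. CD9 had an RNA change of −0.93, a footprint change of −0.020 and a TE change of 0.91, and in TM9SF3 these changes were −0.94, 0.048 and 1.02. In TMEM59 they were −0.78, 0.24 and 1.05. With a trend on GC content removed, the RNA and TE changes were −0.93 and 0.96 in CD9 and −0.51 and 0.82 in TMEM59. In TM9SF3 they were −0.50 and 0.61, close to the −0.46 and 0.59 of CD59.

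GPC3, a heparan sulfate proteoglycan anchored in the membrane by a lipid, had the highest footprint change of the list. Its footprints were 8.98 in siIRE1a cells and 6.98 in siCon cells (1.29-fold, log2 0.36), a change above that of 96.6% of all genes. Its RNA was 0.601 in siIRE1a cells and 0.479 in siCon cells (1.25-fold, log2 0.33). RNA and footprints moved by a like amount, so that TE was 14.9 in siIRE1a cells and 14.6 in siCon cells, with a log2 change of 0.054 in the authors' deposited table (adjusted p = 0.845). The measured glypican relatives GPC1, GPC4 and GPC6 were all above 0 too, between 0.13 and 0.42 in footprints and between 0.14 and 0.44 in RNA. Of all genes, 32.1% were above 0 in footprints and 48.8% in RNA.

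SPARC, a secreted glycoprotein that binds collagen in the matrix, was nearly level in both assays. Its footprints were 32.6 in siIRE1a cells and 31.8 in siCon cells (log2 0.033). Its RNA was 3.31 in siIRE1a cells and 3.37 in siCon cells (log2 −0.025). TE was 9.84 in siIRE1a cells and 9.46 in siCon cells, with a log2 change of 0.068 in the authors' deposited table (adjusted p = 0.750). Its 4 measured relatives spread widely in footprints, between −0.33 and 0.48.

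The receptors TNFRSF10B and SCARA3 were both higher by about the same amount in RNA and footprints. TNFRSF10B encodes death receptor 5, which binds the ligand TRAIL and triggers apoptosis. Its footprints were 8.86 in siIRE1a cells and 7.94 in siCon cells (log2 0.16), and its RNA was 1.67 in siIRE1a cells and 1.46 in siCon cells (log2 0.20). The authors' deposited table gave a log2 change in TE of −0.029 (adjusted p = 0.920). Of 5 measured relatives, among them the TRAIL receptors TNFRSF10A and TNFRSF10D, 4 were above 0 in footprints and 5 in RNA. The shares over all genes were 32.1% in footprints and 48.8% in RNA. SCARA3, a scavenger receptor, had footprints of 1.13 in siIRE1a cells and 1.02 in siCon cells (log2 0.15). Its RNA was 0.751 in siIRE1a cells and 0.678 in siCon cells (log2 0.15), and the authors' deposited table gave a TE change of 0.0019 (adjusted p = 0.997). SCARA3 has a GC-rich transcript (58.6%), and with the trend on GC content removed its RNA change was −0.082.

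PMP22, TGOLN2 and HGSNAT are proteins that span membranes, and they differed among themselves. PMP22, the peripheral myelin protein, resembled CD59 in direction. Its footprints were 3.85 in siIRE1a cells and 3.43 in siCon cells (log2 0.17), and its RNA was 0.392 in siIRE1a cells and 0.475 in siCon cells (log2 −0.28). TE was 9.83 in siIRE1a cells and 7.22 in siCon cells, and the log2 change of 0.45 in the authors' deposited table did not pass (adjusted p = 0.209). Of its relatives EMP1, EMP2 and EMP3, EMP2 rose in TE in the authors' deposited table (log2 0.72, adjusted p = 0.00285), with RNA of 1.01 in siIRE1a cells and 1.70 in siCon cells. EMP3 went the other way, with changes of 0.76 in RNA and 0.29 in footprints and a TE change of −0.47 that did not pass (adjusted p = 0.161 in the authors' deposited table). EMP1 was at 0.026 in RNA and 0.20 in footprints.

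TGOLN2, a protein that cycles between the trans-Golgi network and the surface, had footprints of 7.18 in siIRE1a cells and 6.91 in siCon cells (log2 0.055). Its RNA was 1.72 in siIRE1a cells and 1.49 in siCon cells (log2 0.21). RNA was further apart than footprints, and the authors' deposited table gave a TE change of −0.14 (adjusted p = 0.519). HGSNAT, a lysosomal enzyme that acetylates heparan sulfate during its breakdown, was the 1 substrate below 0 in footprints. Its footprints were 2.69 in siIRE1a cells and 2.95 in siCon cells (log2 −0.13), and its RNA was 1.45 in siIRE1a cells and 1.66 in siCon cells (log2 −0.19). The footprint change of HGSNAT was below the all-gene median of −0.082, and the authors' deposited table gave a TE change of 0.071 (adjusted p = 0.806). Its 5 measured relatives in the breakdown of glycosaminoglycans were also close to 0 in footprints, between −0.12 and 0.069.

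PER1 is the one measured member that does not enter the secretory pathway: it encodes a repressor of the circadian clock. It had the highest RNA change of the list, at 0.857 in siIRE1a cells and 0.612 in siCon cells (1.40-fold, log2 0.49). Its footprints were 1.02 in siIRE1a cells and 0.893 in siCon cells (log2 0.20). TE was 1.196 in siIRE1a cells and 1.46 in siCon cells, and the log2 change of −0.29 in the authors' deposited table did not pass (adjusted p = 0.404). Of 6 other clock genes measured, 4 were above 0 in RNA (48.8% of all genes were) and 3 in footprints (32.1%). Their RNA changes ran between −0.34 and 0.69. BLOC1S1, the other member outside the secretory pathway, encodes a subunit of a complex that builds lysosome-related organelles, and no level is given for it. Of 4 measured subunits of that complex, 2 were above 0 in RNA (48.8% of all genes were) and 1 in footprints (32.1%). That 1 was BLOC1S6, whose TE rose in the authors' deposited table (log2 0.87, adjusted p = 0.00554). The BLOC1S6 transcript has a GC content of 39.0%. With a trend on GC content removed its TE change was 0.57 and its RNA change −0.28 in place of −0.61.

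**Figure D2:**
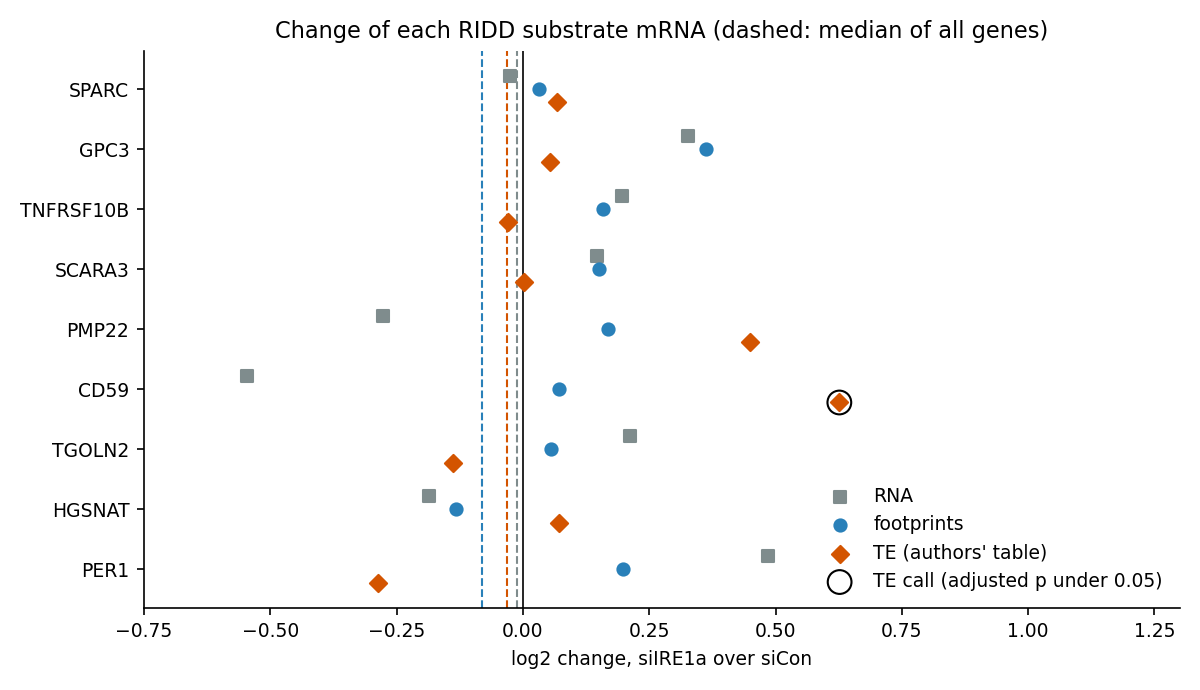
The log2 change of siIRE1a over siCon for each of the 9 measured substrates in RNA (squares), footprints (circles) and TE from the authors' deposited table (diamonds), with dashed lines at the medians of all genes. The open ring marks the 1 TE call, CD59 (log2 0.63), and in CD59 and PMP22 the RNA point is left of 0 while the footprint point is right of it.

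RNA changes in this study moved with the GC content of the transcript, and so did those of the substrates in rank. The rank correlation (Spearman's rho) of GC content with the RNA change was 0.626 over 10188 genes and 0.80 over the 9 substrates, a description across genes that share the same libraries. For footprints rho was −0.042 over all genes and 0.45 over the substrates, and for the TE change it was −0.673 and −0.75. CD59 (GC content 45.5%) and PMP22 (46.5%) had the lowest GC contents and the lowest RNA changes, and PER1 (62.7%) had the highest of both. Within 2 percentage points of its GC content, PER1 had an RNA change above that of 84.2% of 853 genes (0.49 against a median of 0.22). The 1637 genes within 2 points of CD59 had a median RNA change of −0.10, and 6.35% of them had a lower RNA change than CD59. With the GC trend removed the RNA change of CD59 was −0.46 in place of −0.55 and its TE change 0.59 in place of 0.63. The RNA change of PER1 was 0.25 in place of 0.49, while that of TGOLN2 was 0.205 in place of 0.213. That of HGSNAT was −0.22 in place of −0.19, and the TE change of PMP22 was 0.446 in place of 0.450. Of the 1401 tested genes of like GC content, 2.86% had a TE change in the authors' deposited table at least as large as that of CD59, and 4.21% were called higher. Removing the trend turned the TE changes of PER1 and TNFRSF10B to 0.024 and 0.085. It also raised those of SCARA3 to 0.30 in place of 0.0019, GPC3 to 0.21 in place of 0.054 and HGSNAT to 0.15 in place of 0.071. The part of GC content in the changes of the substrates was not tested.

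**Figure D3:**
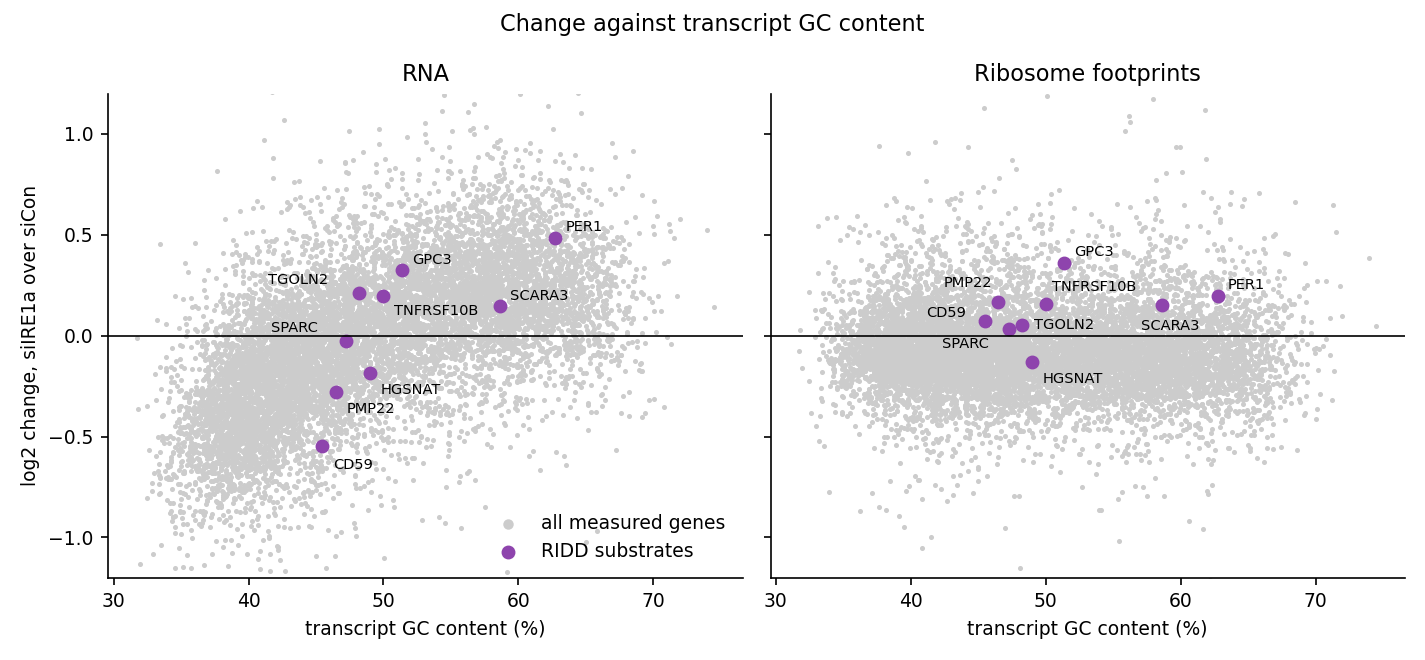
The log2 change of siIRE1a over siCon in RNA (left) and footprints (right) against transcript GC content in percent, with all measured genes in grey and the 9 substrates in purple. The grey cloud climbs with GC content in RNA (rho 0.626) and is flat in footprints (rho −0.042), and 31 genes in RNA and 17 in footprints lie outside the axis limits of ±1.2.

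Since most substrates encode membrane or secreted proteins, their footprint values were set beside those of other such genes. Over all genes, 32.1% had footprint changes above 0, with a median of −0.082. In a list of 49 measured membrane and secreted proteins that were not chosen as RIDD substrates, 37 (75.5%) had footprint changes above 0, with a median of 0.12. Of 34 measured relatives of the substrates 20 (58.8%) were above 0, with a median of 0.16. The substrate median of 0.15 lay between the medians of these 2 lists, and no difference between the lists was tested. The relatives ran from FSTL1 (−0.33) and BLOC1S2 (−0.32) to TNFRSF10D (0.46) and SMOC2 (0.48), and the membrane and secreted proteins from ATP1B1 (−0.38) and CD44 (−0.37) to INSR (0.51) and LRP1 (0.81). The 9 substrates ran from HGSNAT (−0.13) to GPC3 (0.36). RNA medians were 0.15 for the substrates, 0.15 for the relatives and 0.19 for the membrane and secreted proteins, but −0.025, −0.10 and 0.19 over the genes with a mean RNA value of at least 1. TE calls in the authors' deposited table were 7 higher and 1 lower among 48 tested membrane and secreted proteins (higher CD9, CD164, ITGB1, TFRC, TMED2, TMEM59 and TM9SF3, lower TIMP1), against 1 higher and 0 lower among the 9 substrates. The higher calls are 14.6% of the membrane and secreted proteins tested, 11.1% of the substrates and 5.90% of all tested genes. The lower calls are 4.62% of all tested genes. With the GC trend removed the TE changes were 0.25 (CD164), 0.27 (ITGB1), 0.28 (TFRC), 0.21 (TMED2) and −0.21 (TIMP1). They stood in place of 0.54, 0.53, 0.48, 0.46 and −0.50. Those of CD9, TMEM59 and TM9SF3 were 0.96, 0.82 and 0.61 with the trend removed, in place of 0.91, 1.05 and 1.02.

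A further 5 measured mRNAs reported elsewhere as IRE1 substrates had RNA above 0 in all 5 cases (median 0.24), but footprints above 0 in 2 (median −0.11). Of all genes, 48.8% had RNA above 0 and 32.1% had footprints above 0. COL6A1, a collagen chain, had a footprint change of 0.12 and an RNA change of 0.56, and fell in TE in the authors' deposited table (log2 −0.43, adjusted p = 0.0398). PRKCD, a protein kinase C, fell as well (−0.76, adjusted p = 0.0203 in the authors' deposited table), with a footprint change of −0.58 and an RNA change of 0.22. The other measured genes of that list were TAPBP and ERGIC3, with no TE call, and DGAT2, which had no adjusted p in that table. Thus 2 of the 4 tested genes of the list fell in TE, where 4.62% of all tested genes did. In all 5 the RNA change exceeded the footprint change, the opposite order to CD59, as it also did in the substrates PER1, TGOLN2 and TNFRSF10B. The 5 transcripts had a median GC content of 56.1%. With the GC trend removed RNA was above 0 in 4 of 5, TAPBP being at −0.11, and the TE changes moved to −0.13 in place of −0.43 for COL6A1 and to −0.50 in place of −0.76 for PRKCD.

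Targets of XBP1s had footprints above 0 about as often as genes in general. Among 29 measured targets, 9 (31.0%) had footprints above 0 (median −0.061, or 0.021 after median centring), against 32.1% of all genes. In footprints 18 of the 29 were above the all-gene median of −0.082. In RNA 10 (34.5%) were above 0 (median −0.16), against 48.8% of all genes. With the GC trend removed, 13 of the 28 targets with a GC value had RNA above 0 (median −0.027). Their footprint changes ran from KDELR3 (−0.32) and SEC61G (−0.31) to SYVN1 (0.19) and PDIA4 (0.29). Of 28 tested XBP1s targets, 3 rose in TE in the authors' deposited table (EDEM3, SSR1 and SPCS3), where 5.90% of all tested genes rose. Another target, SEC61A1, fell, where 4.62% of all tested genes did. With the GC trend removed the TE change was 0.40 in place of 0.72 for EDEM3 and 0.24 in place of 0.48 for SSR1. For SPCS3 it was 0.063 in place of 0.50, and for SEC61A1 −0.25 in place of −0.47. Of 22 measured genes for RNA ligation, which joins the cut XBP1 ends, and for decay of cut mRNA, 0 had footprints above 0, against 32.1% of all genes (median −0.14), and 5 had RNA above 0, against 48.8% of all genes (median −0.19). The 0 depends on the scaling, since 4 of the 22 were above the all-gene median of −0.082. With the GC trend removed, 6 of the 21 with a GC value had RNA above 0 (median −0.13). Their footprint changes ran from HBS1L (−0.35) and ZBTB8OS (−0.33) to SKIV2L (−0.032) and FAM98A (−0.017). XRN1, the exonuclease that degrades the downstream fragment, had RNA of 0.385 in siIRE1a cells and 0.618 in siCon cells and footprints of 1.38 in siIRE1a cells and 1.64 in siCon cells. Its TE rose in the authors' deposited table (log2 0.45, adjusted p = 0.0378), but its transcript has a GC content of 37.3%, and with the GC trend removed its TE change was 0.079 and its RNA change −0.27 in place of −0.68. EXOSC10, a catalytic subunit of the nuclear exosome, had a lower TE in the authors' deposited table (−0.42, adjusted p = 0.0475), at −0.33 with the trend removed. Whether the lower values of these decay genes bear on the substrates was not tested.

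**Figure D4:**
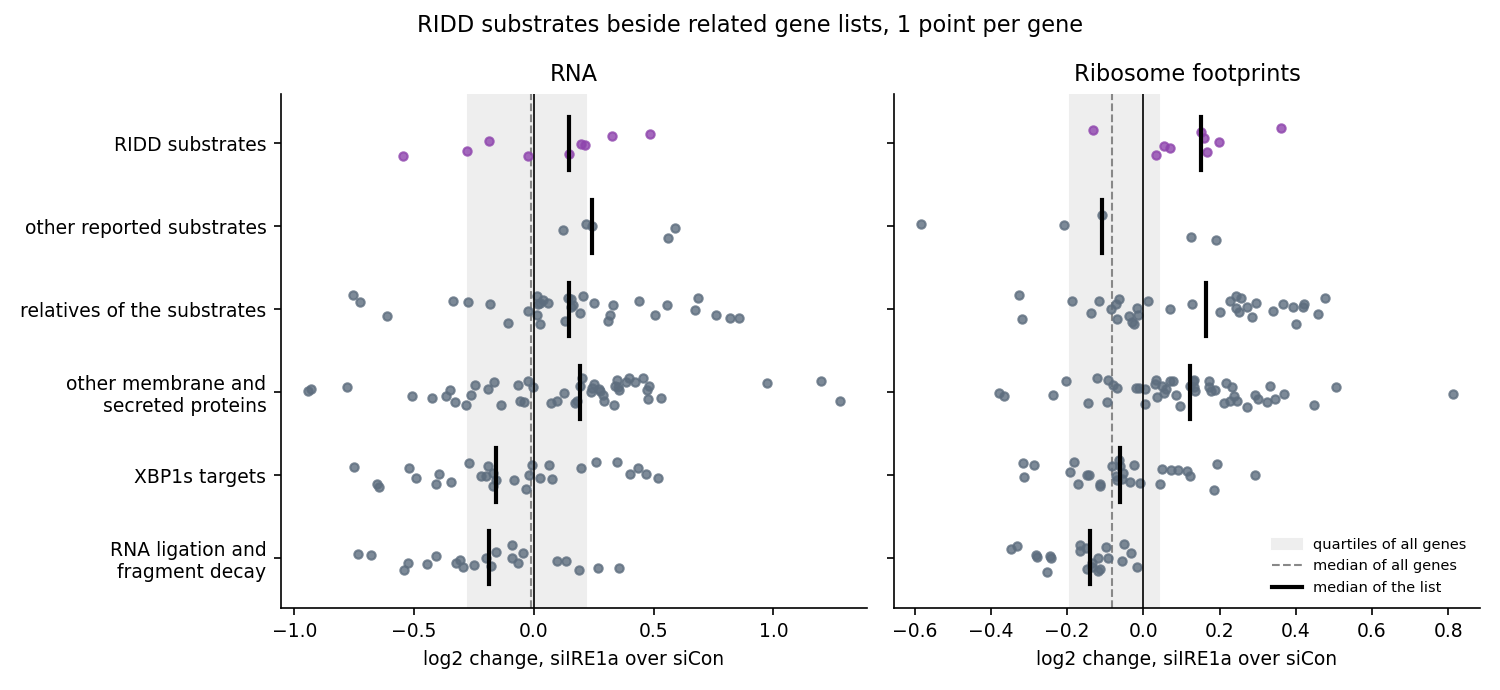
The log2 change of siIRE1a over siCon in RNA (left) and footprints (right) for the RIDD substrates and 5 related gene lists, with 1 point per gene, a black bar at the median of each list and a grey band between the lower and upper quartiles of all genes. The footprint medians of the substrates (0.15), their relatives (0.16) and other membrane and secreted proteins (0.12) lie close together, and those of XBP1s targets (−0.061, or 0.021 after median centring) and decay genes (−0.14) are lower.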

How the data were processed

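Per the submitters' processing notes, reads were processed with Bowtie 1.1.2 and the hg19 (GRCh37) genome. The authors deposited abundances (a score per gene in an unstated unit), TE as the ratio of footprint to RNA abundance, and a table, named after DESeq2, that gives per gene the log2 fold change of TE and its adjusted p-value. How reads were counted, replicates combined and p-values adjusted is not given in the sources used here, nor whether replicates were separate cultures. The descriptions call siCon samples RNA-seq and siIRE1a samples Ribo-seq, so assays were taken from the table columns. How many reads stand behind a value is unknown.

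Of 10522 entries, 9 symbols with 2 entries each were left out, leaving 10504 genes, 8878 with an adjusted p. RNA and footprint changes are log2 of siIRE1a over siCon without a pseudocount. The count tests planned as alternatives could not be run, since no counts are used here. Transcripts came from GENCODE 29, matched by symbol for 10188 genes (97.0%), with complete basic transcripts of the principal isoform and longest coding sequence preferred. GC trends were polynomials of degree 3, and removing one also centres the changes near 0. Apart from the minimum mean value of 1 and the low level of ERN1, levels and TE were not compared between genes. The unit is not stated, and Spearman's rho with coding length was −0.235 for RNA and −0.507 for footprints. The minimum of 1 lies above the siCon median of all genes in RNA (0.412) and below it in footprints (1.84). It is thus a stricter cut in RNA. The members and gene lists were chosen with earlier results of these data known, and the grouping of relatives by family was made after their values were seen. All 9 measured members are named, with ERN1 and XBP1, and in the other lists genes with a TE call, the 2 highest and 2 lowest in footprints and, for lists under 10 measured genes, each; CD46, CD55 and other family members beside a substrate were added after their values were seen. The calculations, checked on simulated data, used Python 3.11.15, numpy 2.4.6 and pandas 2.3.3.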

Additional observations from a re-analysis of the deposited data

How the results depend on the processing

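With 1 deposited value per group and assay, no replicate could be left out and no count model fitted. No paired analysis was possible because the columns carry no replicate number. The TE call of CD59 was the only one among the substrates at an adjusted p under 0.05, under 0.1 and under 0.01. The median footprint change of the substrates (0.15) was 0.14 and 0.078 with pseudocounts of 0.1 and 1, 0.23 with median centring, 0.21 with quantile normalization, 0.11 over the substrates whose mean value reached 1 and 0.23 with the GC trend removed. In the same order the median RNA change (0.15) was 0.13, 0.061, 0.16, 0.22, −0.025 and −0.0011. The median TE change (0.054) was 0.037 from the TE columns, 0.085 with centring, 0.068 with the abundance minimum and 0.15 with the GC trend removed. The 8 substrates with footprints above 0 stayed 8 under pseudocounts, centring, quantile normalization and GC removal and were 7 with the minimum, which left 8 members. Those with RNA above 0 were 2 of 5 with the minimum and 4 of 9 with the GC trend removed. Substrates at least 1.2-fold higher in footprints were 2 with centring, quantile normalization and GC removal, and in RNA 0 with a pseudocount of 1, the minimum or GC removal and 4 with quantile normalization. Those at least 1.2-fold lower in RNA (2) were 1 with either pseudocount, quantile normalization, the minimum or GC removal. The counts under GC removal and those of lower RNA were added after seeing the data. No member's footprint change turned sign under any of these settings. Median centring put list footprint medians at 0.23 (substrates), −0.027 (other reported substrates), −0.059 (ligation and decay), 0.021 (XBP1s targets, which turned sign), 0.25 (relatives) and 0.20 (membrane and secreted). A minimum of 1, applied to the lists after seeing the data, gave 0.11 (substrates), −0.16 (other reported substrates), −0.15 (ligation and decay) and 0.13 (membrane and secreted). It moved the RNA median of the relatives to −0.10 and left that of the membrane and secreted proteins at 0.19. GC removal, also added, put RNA medians at 0.057 (other reported substrates), −0.13 (ligation and decay), −0.027 (XBP1s targets), 0.19 (relatives) and 0.14 (membrane and secreted).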
